A study of Homo sapiens with 6 samples.

Results

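The SLC30 family, also called the ZnT family, moves metal ions, for most members out of the cytosol. The account here covers 8 of its genes: SLC30A1, SLC30A3, SLC30A4, SLC30A5, SLC30A6, SLC30A7, SLC30A9 and SLC30A10. They were found as every probe set, other than controls, whose only gene symbol in the platform annotation is one of these names. They are 8 of 19775 genes with such a probe set, and hold 22 of the 54613 probe sets, with 1 to 5 for each gene. Values are RMA signals on the log2 scale, and 17 of the 22 entered the test, which needed a 6-array mean of at least 3.49, the median over all probe sets.

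Expression was measured in K562, an established line from a chronic myelogenous leukaemia, in 2 groups of 3 arrays each. The CA arrays came from wells given 25 nM cortistatin A (CA), which inhibits CDK8 and CDK19, the kinases of the Mediator complex, for 3 h. The DMSO arrays came from wells given the vehicle DMSO for 3 h. All wells held this 1 cell line without genetic change named in the labels, with 3 wells a group and 500000 to 800000 cells in each mL, and the comparison asks which transcripts the compound altered within this time.

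Zinc is held at very low free levels in the cytosol. Most SLC30 proteins carry it outward or into organelles, SLC39 (ZIP) proteins carry it inward, and metallothioneins bind it. SLC30A10 differs from the others in that it exports manganese across the cell surface. Its inherited loss causes a syndrome of manganese overload with dystonia, liver disease and an excess of red cells. When zinc rises, the zinc-sensing factor MTF1 binds metal response elements and switches on many metallothionein genes and SLC30A1.

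The family held 1 gene with a sizeable difference. SLC30A10 was 1.50-fold higher on the CA arrays than on the DMSO arrays, a log2 difference of 0.58 (95% confidence interval 0.26 to 0.91), while the 16 other tested probe sets lay between -0.24 and 0.13. No SLC30 probe set passed the test over all 27307 probe sets, at an adjusted p under 0.05 from a linear model with moderated variance (limma). Over all probe sets 0.0952% passed. The members were chosen by gene symbol, with their CA and DMSO signals already known, so their differences and intervals are a description and the p values are no independent evidence.

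SLC30A10 is read by a single probe set, 220435_at, so no other probe set could be set beside it. The wells were measured in bulk, so that more cells with the transcript and more transcript in each cell cannot be told apart. Its log2 signal was 6.11, 6.50 and 6.24 on the CA arrays, against 5.46, 5.82 and 5.82 on the DMSO arrays. Every CA array lay above every DMSO array, with DMSO array 1 the lowest of the 6 and CA array 2 the highest. The group means were 6.28 ± 0.20 in CA and 5.70 ± 0.21 in DMSO (SD, n = 3 each). The adjusted p by limma was 0.296, above the threshold. A model in which the prior variance follows the mean signal gave 0.0229, with 1.04% of all probe sets called. Of the 27307 tested probe sets, 9 were higher on the CA arrays by at least as much, this one included, and 377 had a p at least as small.

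**Figure D1:**
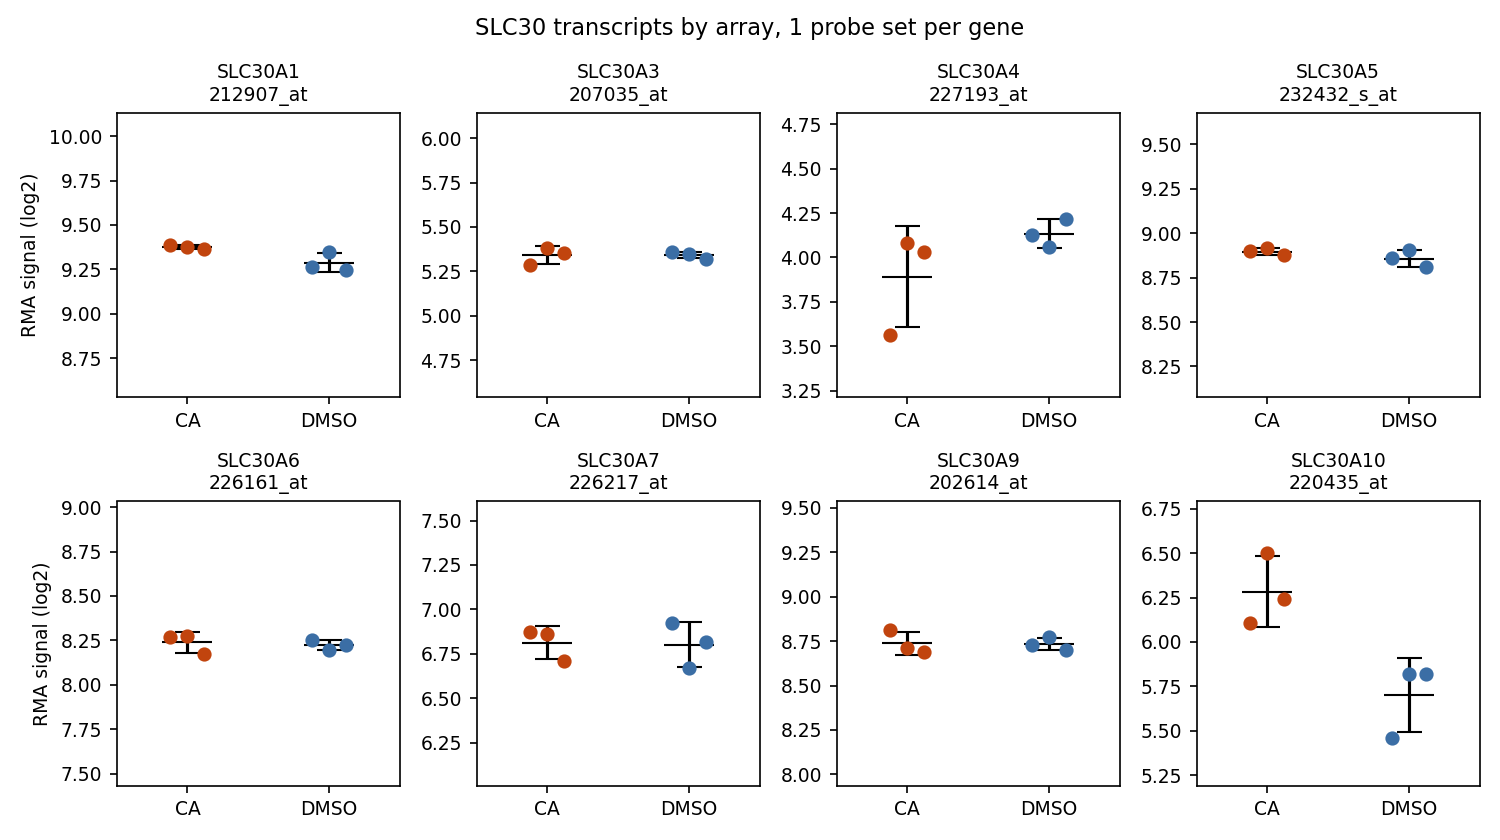
RMA signal (log2) on each array for the probe set with the highest mean of each SLC30 gene, CA left and DMSO right; points are arrays, bars the mean and SD, and every panel spans the same range. The CA points for SLC30A10 (6.11 to 6.50) lie above the DMSO points (5.46 to 5.82), while for SLC30A4 CA array 1 (3.56) lies below the others.

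The windows before the starts of SLC30A10, SLC30A1 and SLC30A5 are shown. SLC30A10 is the member with the difference, and SLC30A1 and SLC30A5 are examples of windows that hold a motif searched for. The response of these genes to zinc was not measured here. Each is the 250 bases before an annotated start, read 5' to 3' on the gene's strand, from RefSeq on GRCh38.p14. For SLC30A10, on the minus strand, the upstream start follows chr1:219959099-219959348 and the downstream start chr1:219928558-219928807. SLC30A1 is at chr1:211579162-211579411, minus strand, and SLC30A5 at chr5:69093764-69094013, plus strand. Capitals mark a metal response element core (TGCACNC or TGCGCNC, either strand) or both arms of a zinc transcriptional regulatory element, the motif of the zinc-linked repressor ZNF658, searched as CACTCC followed within 50 bases by GGAGTG.
SLC30A10 upstream start: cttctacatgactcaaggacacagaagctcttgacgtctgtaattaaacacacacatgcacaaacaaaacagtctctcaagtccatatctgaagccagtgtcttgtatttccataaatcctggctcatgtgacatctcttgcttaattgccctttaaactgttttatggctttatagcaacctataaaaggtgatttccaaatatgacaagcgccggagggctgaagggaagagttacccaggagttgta
SLC30A10 downstream start: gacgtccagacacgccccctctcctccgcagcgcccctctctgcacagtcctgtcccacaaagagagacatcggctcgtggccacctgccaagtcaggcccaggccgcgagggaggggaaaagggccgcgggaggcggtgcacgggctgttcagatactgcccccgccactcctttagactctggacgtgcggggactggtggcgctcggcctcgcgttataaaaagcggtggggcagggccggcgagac
SLC30A1: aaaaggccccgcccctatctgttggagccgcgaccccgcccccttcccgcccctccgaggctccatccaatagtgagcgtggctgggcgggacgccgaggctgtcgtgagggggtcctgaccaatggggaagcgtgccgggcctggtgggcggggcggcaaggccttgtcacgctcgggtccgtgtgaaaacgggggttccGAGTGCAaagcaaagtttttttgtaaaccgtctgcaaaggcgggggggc
SLC30A5: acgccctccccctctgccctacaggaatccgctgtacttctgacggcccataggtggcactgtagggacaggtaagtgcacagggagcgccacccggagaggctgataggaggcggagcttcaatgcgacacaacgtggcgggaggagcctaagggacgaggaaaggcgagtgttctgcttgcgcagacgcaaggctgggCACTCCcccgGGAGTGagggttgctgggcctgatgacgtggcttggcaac

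Neither SLC30A10 window holds either motif in this spelling. Other spellings of the zinc element were not searched, so a window without a match may still hold one. SLC30A1 has 1 metal response core, on the opposite strand, from base 49 to base 43 before its start. SLC30A5 has the zinc element in the spelling searched, with its arms beginning 50 and 40 bases before its start. Among all 10 annotated starts of the 8 genes, 5 windows hold a metal response core, those of SLC30A1, SLC30A4 and SLC30A6 and both of SLC30A3. Of all 35116 windows of this length in the table, 24.8% hold a core and 0.117% the zinc element in this 1 spelling. The 2 spellings of the core do not overlap the zinc element in these windows. A match is only a run of letters, the arrays do not show which start was used, and no binding was measured.

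SLC30A1 is the main zinc exporter of the cell surface. Its probe set with the highest signal, 212907_at, had 9.39, 9.37 and 9.36 on the CA arrays, against 9.26, 9.35 and 9.25 on the DMSO arrays. The groups did not overlap, but the difference was small, at 0.09 (-0.02 to 0.20; adjusted p by limma = 0.616). Probe set 228181_at had 7.02, 7.17 and 6.99 on the CA arrays, against 7.10, 6.97 and 6.88 on the DMSO arrays, and there the groups overlapped. Another probe set, 242716_at, was below the signal filter, with 2.94, 2.84 and 2.78 on the CA arrays, against 2.60, 2.62 and 2.62 on the DMSO arrays. All 3 CA arrays were higher there, by 0.25 on average. Fitted without the filter it had an interval of 0.10 to 0.39 and an adjusted p by limma of 0.613. RMA compresses differences at such a low signal.

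Of the vesicle transporters, SLC30A4 carries zinc into endosomes and lysosomes and SLC30A3 loads it into the synaptic vesicles of neurons. SLC30A4 was tested on 227193_at, where the CA arrays had 3.56, 4.08 and 4.03, against 4.13, 4.06 and 4.22 on the DMSO arrays. The difference of -0.24 (-0.57 to 0.09) came with 1 low CA array, the first. Of the other 2 CA arrays 1 lay within the DMSO range and 1 just below it. Without CA array 1 the difference was -0.08. Both dim probe sets of the gene also had lower means on the CA arrays, with differences of -0.26 and -0.14. For 238845_at the values were 1.95, 2.01 and 1.81 on the CA arrays, against 2.22, 2.05 and 2.28 on the DMSO arrays, and the groups did not overlap. Fitted without the filter, 238845_at had an interval of -0.46 to -0.06 and an adjusted p by limma of 0.648. SLC30A3 had group means of 5.34 in CA and 5.34 in DMSO, a difference of 0.00 (-0.11 to 0.11).

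The early secretory pathway is supplied by SLC30A5 and SLC30A6, which work as a pair in which SLC30A5 does the transport, and by SLC30A7, which acts on its own. SLC30A5 had 5 tested probe sets, with differences from 0.01 to 0.12. The smallest, on 243166_at, turned to -0.01 with centred arrays. It was also below 0 with array weights and without CA array 1, CA array 2 or DMSO array 3, at -0.08 in the last case. The largest was on 220181_x_at, whose signal was 8.28, 8.20 and 8.28 on the CA arrays, against 8.12, 8.09 and 8.18 on the DMSO arrays. The groups did not overlap there, while on the gene's probe set with the highest signal, 232432_s_at, they did, with a difference of 0.04 (-0.07 to 0.14). Of the 5 SLC30A5 probe sets, 4 are of kinds that can match more than 1 transcript. SLC30A6 had 0.02 (-0.10 to 0.13) and 0.01 (-0.10 to 0.13) on its tested probe sets.

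The 3 SLC30A7 probe sets had differences of 0.01, 0.13 and -0.22, and all 3 intervals included 0. Without CA array 1 they were -0.02, 0.02 and -0.40, the last with an interval of -0.69 to -0.11 and an adjusted p by limma of 0.354. Without CA array 3 they were 0.06, 0.21 and -0.04. The probe set with the negative difference, 239596_at, had 4.65, 4.29 and 3.94 on the CA arrays, against 4.62, 4.49 and 4.43 on the DMSO arrays. Its CA values spanned the whole DMSO range, and its interval was wide, from -0.63 to 0.19. SLC30A9, the zinc exporter of mitochondria, had 0.00 (-0.12 to 0.12) on 202614_at and -0.11 (-0.27 to 0.04) on 229500_at. For SLC30A3, SLC30A6 and SLC30A9 the intervals on the probe set with the highest signal stayed within 0.13 of 0 on the log2 scale.

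**Figure D2:**
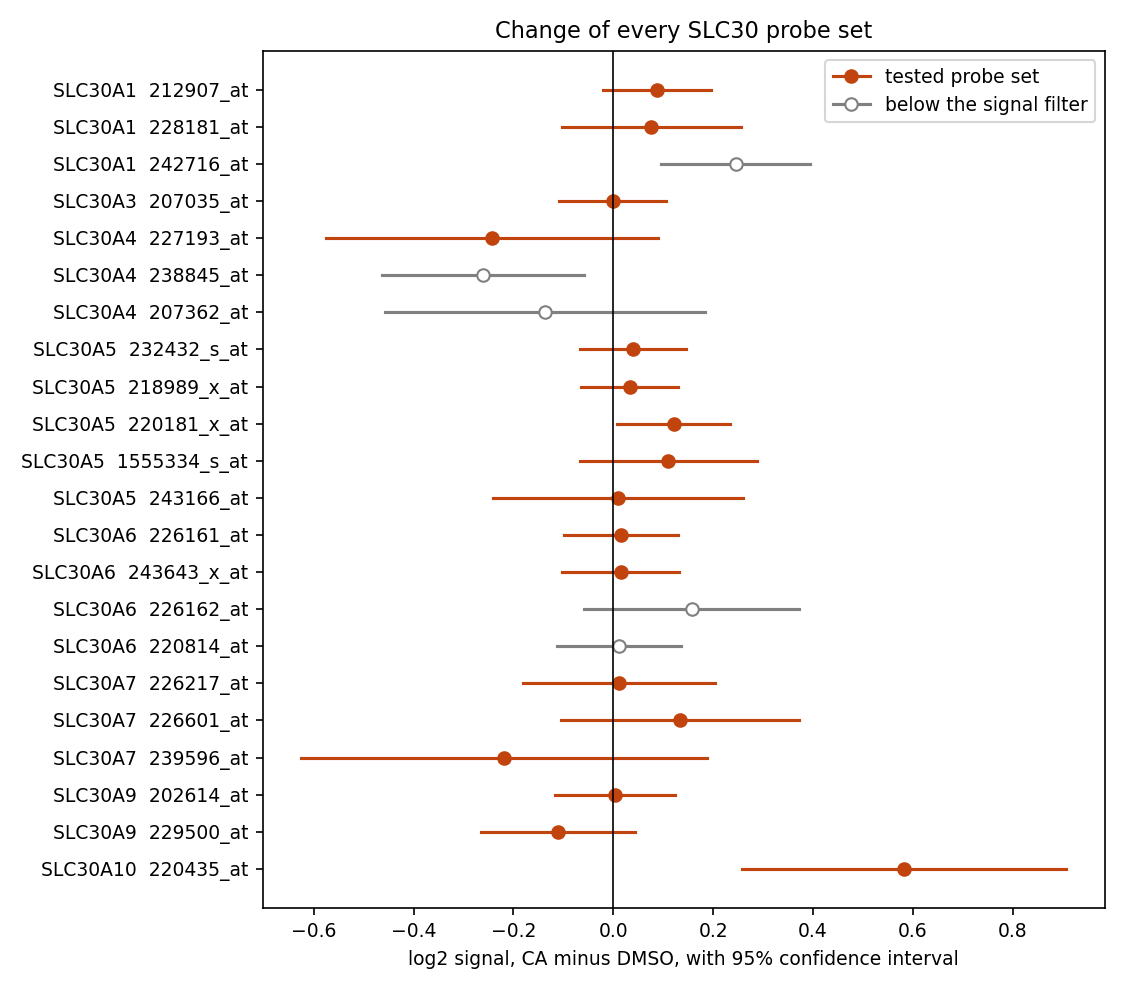
Difference in log2 signal, CA minus DMSO, for all 22 SLC30 probe sets with 95% confidence intervals from limma; open grey points are the 5 probe sets below the signal filter, fitted without it. SLC30A10 at 0.58 stands to the right of the 16 other tested probe sets, which lie between -0.24 and 0.13.

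Counted over the family, 13 of the 17 tested probe sets had a difference above 0 and 4 below, where 46.5% of all tested probe sets were above 0. With the arrays centred on their medians the split was 9 to 8, where 39.6% of all were above 0, so it depends on the scaling. The median was 0.02, against -0.01 over all probe sets, and it was 0.00 after centring. An unadjusted p under 0.05 was reached by 2 of the 17, SLC30A10 and 220181_x_at of SLC30A5, where 9.31% of all probe sets reached it. The groups did not overlap for 3 of the 17, all higher in CA, or 17.6%, where 15.6% of all probe sets did not overlap and 7.09% did so with CA higher. These shares use 5 probe sets of 1 gene and so are not counts of independent genes.

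**Figure D3:**
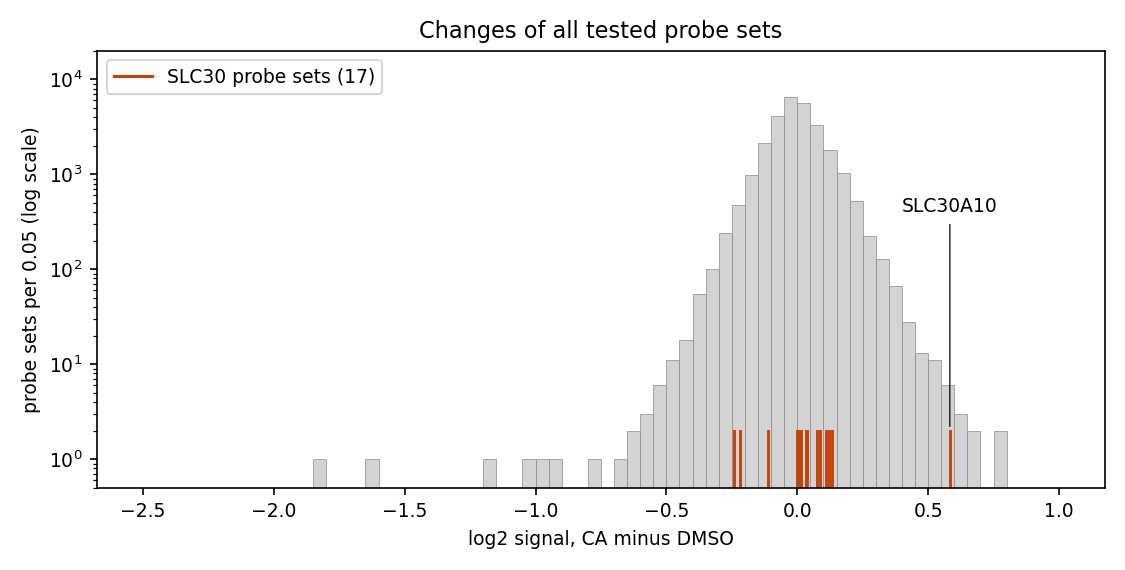
Number of tested probe sets (log scale) by difference in log2 signal, CA minus DMSO, in steps of 0.05; red ticks mark the 17 SLC30 probe sets. SLC30A10 lies in the right tail, where 9 probe sets of 27307 reach 0.58 or more, and the other ticks lie in the body of the distribution.

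The genes whose pattern over the 6 arrays was most like that of SLC30A10, among 12802 other measured genes with 1 probe set each, were PALB2, RNF168 and PACS1. Their Pearson r was 0.988, 0.988 and 0.983. PALB2 and RNF168 encode proteins of DNA double-strand break repair, and PACS1 a sorting protein of the trans-Golgi network. Their differences were smaller, at 0.13, 0.11 and 0.22. These r rest on 6 arrays in 2 groups, with the same wells behind both genes of a pair, and are a description.

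The other metal-handling genes were taken from 7 lists of 51 genes, of which 37 were measured on a tested probe set. None of the 37 was called by limma, where 0.0859% of the 12810 measured genes were. At an unadjusted p under 0.05 there were 3, SLC39A10, MTF1 and CCS, or 8.11%, where 8.61% of measured genes were. The median of the 37 was -0.01, and that of all measured genes was also -0.01. The groups did not overlap for 4 of the 37, these 3 and SLC39A7 (-0.08), where 16.1% of measured genes did not.

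Zinc importers gave 0 calls in 13 measured, with 6 differences above 0 and 7 below and a median of -0.01. These values use the brightest tested probe set of each gene, and the other probe sets of the importers were not summarised. For SLC39A6 the brightest had 0.11. Dimmer tested probe sets of that gene, with mean signals of 4.83 and 4.46, had 0.43 and 0.31. SLC39A10, a zinc importer of the cell surface, had the smallest p. Its signal was 8.67, 8.52 and 8.59 on the CA arrays, against 8.42, 8.39 and 8.35 on the DMSO arrays, and the groups did not overlap. Its difference was 0.20 (0.08 to 0.33), with an adjusted p by limma of 0.339, or 0.0424 with the prior variance that follows the signal, where 1.23% of measured genes were called. SLC39A14, an importer of zinc, iron and manganese that partners SLC30A10 in liver manganese clearance, had -0.01 (-0.11 to 0.08), with group means of 9.55 in CA and 9.57 in DMSO. A dimmer tested probe set of SLC39A14, with a mean signal of 3.93, had 0.18.

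The zinc sensor MTF1 had 6.39, 6.39 and 6.38 on the CA arrays, against 6.28, 6.27 and 6.27 on the DMSO arrays. The groups did not overlap and were tight, but the difference was 0.11 (0.02 to 0.20; adjusted p by limma = 0.429). Metallothioneins, many of whose transcripts follow zinc through MTF1, gave 0 calls in 8 measured, and 0 had an unadjusted p under 0.05. They had 2 differences above 0 and 6 below, from -0.08 to 0.06. MT2A had group means of 7.95 in CA and 7.96 in DMSO, a difference of -0.01 (-0.22 to 0.19), and MT1E had -0.08 (-0.33 to 0.17). Most of these probe sets are of the kind that matches several near-identical metallothionein genes, so the members cannot be told apart with certainty.

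The manganese list gave 0 calls in 7 measured, with a median of 0.02 and differences from -0.09 to 0.11. TMEM165, a Golgi protein needed for manganese-dependent glycosylation, had the smallest p, at -0.09 (-0.22 to 0.05). SLC39A8, an importer of zinc and manganese, had 0.03 (-0.08 to 0.15). On the brightest tested probe set of each, none of the measured genes on this list differed by more than the 0.11 of SLC11A2. Their gap to SLC30A10 was not tested.

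Of copper genes 0 of 6 measured were called, and CCS, the chaperone that loads copper into superoxide dismutase, had the smallest p. Its signal was 6.24, 6.39 and 6.33 on the CA arrays, against 6.47, 6.43 and 6.67 on the DMSO arrays. All CA arrays lay below all DMSO arrays, with a difference of -0.20 (-0.39 to -0.02; adjusted p by limma = 0.494). ATOX1, another copper chaperone, had -0.03 (-0.13 to 0.07). Secreted and membrane zinc enzymes, some of which receive zinc through SLC30A5 and SLC30A7, had 3 of 8 genes measured and 0 called, with ALPI at 0.10 (-0.14 to 0.34) and ENPP3 at 0.05 (-0.10 to 0.21). SLC30A2, a further family member, had -0.12 (-0.31 to 0.08), and 2 other zinc exporters on the list, SLC30A8 and TMEM163, were below the signal filter.

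**Figure D4:**
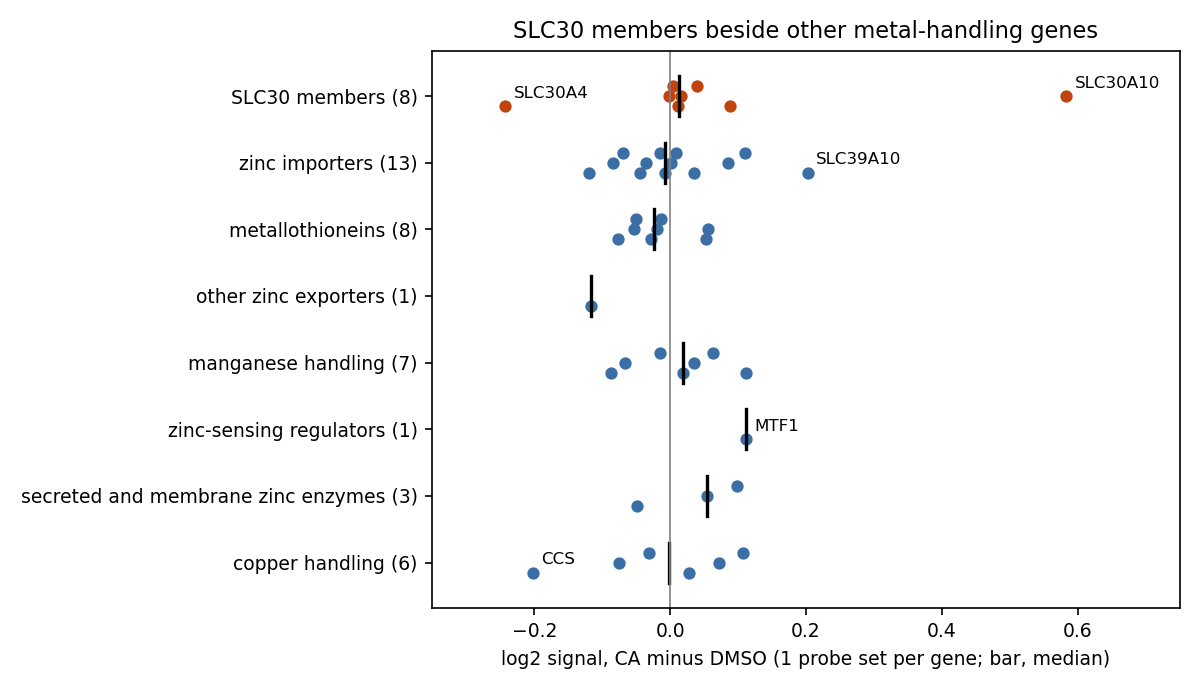
Difference in log2 signal, CA minus DMSO, for each measured gene of the SLC30 family and of 7 lists of metal-handling genes, with the number measured in brackets; bars are medians. Each gene is drawn on its brightest tested probe set alone. Among these, SLC30A10 (0.58) is apart from all other points, which lie between -0.24 and 0.20. Dimmer tested probe sets, not drawn, can differ more, as for SLC39A6, with 0.43 and 0.31 against 0.11 on the drawn one.

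The arrays themselves were close, with correlations of 0.997 across probe sets. Of 7 erythroid markers expected in this line 6 were above the signal filter, with HBE1, an embryonic globin, at 13.27 in CA and 13.27 in DMSO. TFRC, the transferrin receptor of the same marker list, was at 12.25 in CA and 12.13 in DMSO, and all CA arrays were above all DMSO arrays. Its difference was 0.12 (0.02 to 0.23; adjusted p by limma = 0.442, or 0.0163 with the variance that follows the signal). Of 14 markers of other cell types 9 were above the signal filter, among them CD3D, LYZ and EPCAM, and 0 were called by limma, with differences from -0.06 to 0.15. The 8 probe sets for the 3' ends of the control RNAs added before labelling were all lower in CA, while of the 8 for their 5' ends 4 were. Whether these controls were dosed by cell number or by RNA mass is not given in the labels, so neither scaling is read as transcripts per cell. Scaling to the 5' ends would add 0.04 to every difference, with a family median of 0.06 and 0 SLC30 probe sets called, where 0.103% of all were. Scaling to the 3' ends would add 0.20 to every difference, and the median of all tested probe sets would then be 0.19. On the 3' scale SLC30A10 had 0.78, the median of the family was 0.21, and SLC30A3, at 0.00 without it, had 0.19. SLC30A4 (-0.05) and 239596_at of SLC30A7 (-0.02) were still below 0, while 229500_at of SLC30A9 turned to 0.08. With the 3' scaling 4 SLC30 probe sets were called, where 13.5% of all were, and 4 of the 37 list genes, where 11.5% of measured genes were. Every difference given is thus a shift within the RMA values, measured against the bulk of transcripts.

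**Figure D5:**
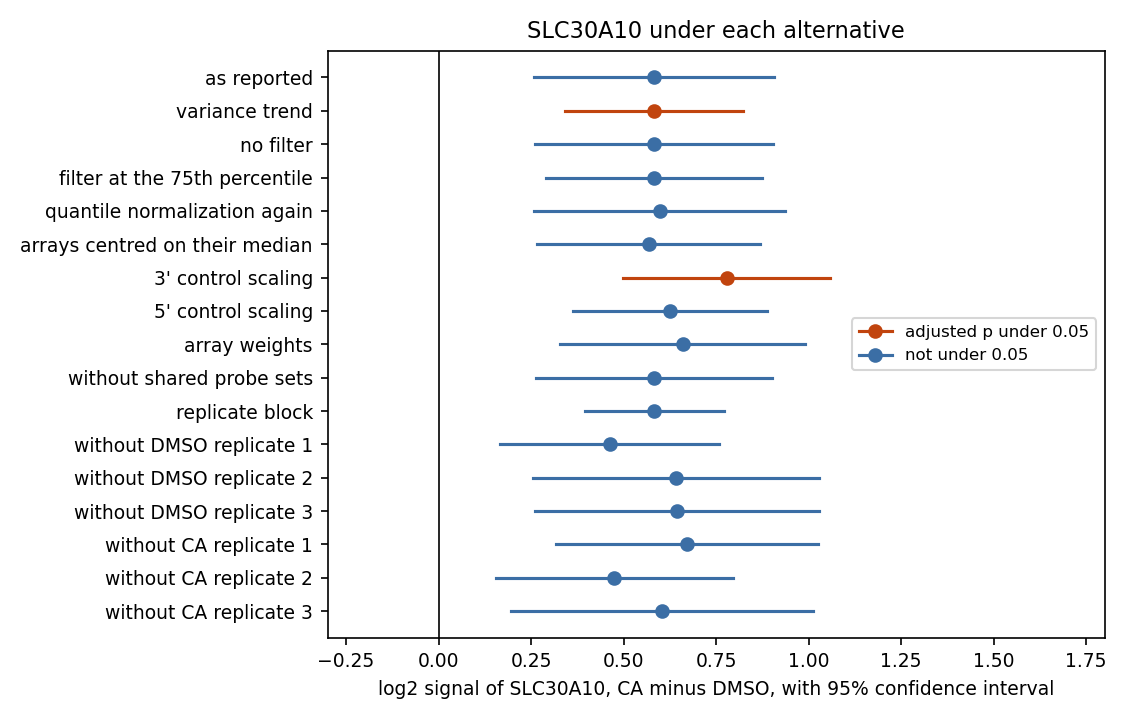
Difference in log2 signal of SLC30A10, CA minus DMSO, with 95% confidence intervals, as reported and under 16 alternative settings; red marks an adjusted p under 0.05. All 16 differences are above 0, from 0.46 to 0.78, and 2 are called.

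Under the 16 alternative settings SLC30A10 stayed higher in CA each time, from 0.46 without DMSO array 1 to 0.78 with scaling to the 3' control ends. Each interval lay above 0. Leaving out each array in turn gave 0.46 to 0.67, with adjusted p by limma between 0.296 and 0.522. It was called in 2 settings, the variance that follows the signal and the 3' control scaling.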

How the data were processed

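Total RNA (100 ng) was labelled by a 3' poly(A)-primed method and hybridised to Human U133 Plus 2.0 arrays, per the labels' protocols. The authors deposited log2 expression values made with RMA in the affy package, per the submitters' processing notes, with versions not given in the sources used here. RMA equalises the arrays, so a shift shared by most transcripts is not visible, and it compresses differences of dim probe sets. Only 6 arrays limit the precision, with a median standard error of 0.07 on the log2 scale. Extraction was by RNeasy or TRIzol, and which sample had which is not stated.

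From those values, 62 control probe sets and those with a mean under 3.49 were left out, and CA was compared with DMSO in limma 3.58.1 (R 4.3.3; lmFit and eBayes, 2-sided, no block), adjusted by Benjamini-Hochberg over 27307 probe sets. The p values measure the spread between these wells. A gene was represented by the brightest tested probe set that carries its symbol alone. Motifs were searched in Python 3.11.15. The fit was tested on simulated data only for changes larger than that of SLC30A10, so smaller ones were not covered.

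The members and lists were chosen with earlier results of these data known. Named genes were all members; from each list the called genes, the one with the highest signal and the one with the smallest p; and the 3 genes most like the member with the largest difference. CD3D, LYZ, EPCAM, HBE1, TFRC, SLC39A7, SLC39A8, SLC11A2, SLC39A6, SLC31A1, SLC30A8 and TMEM163 were named in addition, after their values were seen. Alternatives covered variance model, filter, normalisation, weights, shared probe sets, replicate block, gene summary and each array left out.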

Additional observations from a re-analysis of the deposited data

How the results depend on the processing

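The number of SLC30 probe sets called, 0, was the same in all but 2 of the alternatives run. It was 1 with the variance trend (SLC30A10) and 4 with 3' control scaling, where SLC30A1, SLC30A10 and 2 probe sets of SLC30A5 passed and 13.5% of all probe sets were called. List genes called were 1 with the variance trend (SLC39A10, where 1.23% of measured genes were called) and 4 with 3' control scaling (SLC39A6, SLC39A10, MTF1 and SLC31A1, where 11.5% were). Over all probe sets, 26 were called, against 285 with the variance trend, 5 without a filter, 162 when only the upper quartile by signal (75th percentile) was tested, 3691 with 3' control scaling and 1 without shared probe sets. Leaving out each array in turn gave 2 to 5. The median over the family moved from 0.02 to 0.21 with 3' control scaling, which by construction adds 0.20 to every value. Of 263 values of single SLC30 probe sets under the alternatives, 245 moved by less than 1 SD between replicates and 18 by more, and 26 changed sign, none of them called and none of SLC30A10. The split above and below 0 ran from 9 and 8 (centring) to 15 and 2 (3' control scaling) among the fits to all 17. The causes of the other movements were not tested.

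Over all tested probe sets, the shared replicate numbers showed no pairing of the wells. Deviations from the group means correlated at -0.07, 0.01 and 0.06 between same-numbered arrays, and 1 of 3 CA arrays was closest to its own number. With the replicate block limma called 0 probe sets over all and 0 of the family, with 2485 and 2 at an unadjusted p under 0.05. SLC30A10 then had a narrower interval, 0.40 to 0.77 against 0.26 to 0.91 without the block, and an adjusted p by limma of 0.407. Signal limits the reading of the 5 dim probe sets, and SLC30A10 rests on 1 probe set.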
